A study of Drosophila melanogaster with 12 samples.

Results

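The cuticle protein families of the fruit fly Drosophila melanogaster were followed in adult heads over a light/dark day and the following day in darkness. Genes were taken as members if a probe set carried 1 gene symbol that began with Cpr, Lcp, Ccp84, Acp65A, Pcp, Edg or Twdl and matched the pattern of those names, and each gene was represented by its probe set with the highest mean over the arrays. This gave 92 of the 10844 genes with a named probe set: 58 Cpr genes, 20 Tweedle (Twdl) genes, 5 Lcp genes, 4 Ccp84A genes, 3 Edg genes, Pcp and Acp65Aa. Membership was defined by gene name, but the families were chosen with earlier results of these data known. The RefSeq gene table lists 122 genes with such names, and 7 further probe sets that carry a family gene together with other symbols were not used.

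All flies were y w; tim01. This allele abolishes the function of the clock gene timeless, and no sample with a working timeless gene was analysed here. After 3 days of entrainment to 12 h light and 12 h dark, flies were taken every 4 h through another such day (LD, zeitgeber times ZT2 to ZT22) and then through a day of constant darkness (DD, circadian times CT2 to CT22). Each time was 1 array made from the pooled heads of about 100 to 200 flies, and the labels used here give neither age nor sex. The 4 groups of 3 arrays were LD light (ZT2, ZT6 and ZT10), LD dark (ZT14, ZT18 and ZT22), DD subjective day (CT2, CT6 and CT10) and DD subjective night (CT14, CT18 and CT22). The 3 times of a phase stood in for replicates, so the p-value of a contrast between groups measures only the spread among times within groups. That spread was pooled over all 4 groups and moderated across probe sets, so arrays outside a contrast enter its p-value too. For the 24 h waves and the trend described below, the p-value measures the spread of single arrays about the fitted curve or line. The LD day always came first, so lighting, day and age cannot be told apart between the days. In whole heads, fewer cells of a type and less RNA per cell cannot be told apart either.

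The insect cuticle is a layered coat of chitin fibres and proteins that the epidermis secretes on its outer side. Most of its structural proteins belong to the CPR family, which carries the Rebers and Riddiford chitin-binding motif and includes the Cpr, Lcp, Ccp84A, Acp65A and Pcp genes and Edg78E and Edg84A. Tweedle proteins form a separate family of cuticle proteins, in which dominant mutations make the body short and squat. Most cuticle genes are best known from the bursts of secretion that accompany each moult. The adult head goes on wearing cuticle, which also forms the corneal lenses of the compound eye.

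The samples carried markers of head tissues and, to a varying degree, of other tissues. The mean log2 value of the 6 measured of 9 photoreceptor markers lay between 9.16 and 9.37 on all 12 arrays, that of the 5 measured of 6 glial markers between 5.95 and 6.25, and that of the 3 measured of 6 neuronal markers between 4.13 and 4.41. Markers of 3 tissues outside the head varied more: the 11 measured of 12 midgut markers had a mean from 4.64 to 8.03, the 17 measured of 19 male reproductive markers from 3.44 to 5.24, and the 7 measured of 10 thorax muscle markers from 5.34 to 6.22. The 12 measured of 14 female germline and follicle markers had a mean from 4.65 to 4.85. A body-tissue score made from the midgut, male and muscle markers, centred over the arrays, was −0.53 ± 0.29 in LD light, −0.07 ± 0.67 in LD dark, −0.44 ± 0.59 in DD subjective day and 1.05 ± 0.12 in DD subjective night (log2, mean ± SD, n = 3 each). The array median lay between 3.999 (CT2) and 4.10 (ZT6), and none of the 66 pairs of arrays were identical.

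No cuticle protein gene passed the test in any of the 10 comparisons made: 4 phase contrasts, the LD day against the DD day, the difference between the day-night differences, a 24 h cosine wave in LD, in DD and shared by both days, and a linear trend over the collection. The test was limma's moderated test on log2 values, with p-values adjusted by the Benjamini-Hochberg method over all 13966 probe sets and a threshold of 0.05. The comparisons called from 0% to 1.39% of all probe sets. The smallest adjusted p of a member was 0.0856, for the 24 h wave of Cpr49Ae in DD.

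The values themselves moved little. A probe set's range, its highest minus its lowest value over the 12 arrays, had a median of 0.30 log2 units over the 92 genes and 0.34 over all probe sets. The range stayed under 0.5 for 85 of the 92 genes (92.4%) and for 86.0% of all probe sets. Above the median mean of all probe sets, 4.07, 54 of 56 cuticle genes (96.4%) and 86.5% of all probe sets stayed under 0.5. The remaining 36 genes had means at or below that median, and 9 of them (Cpr11A, Cpr47Ec, Cpr49Ah, Cpr67Fa2, Edg78E, Lcp65Af, TwdlL, TwdlS and Twdlalpha) had a mean under each array's lower quartile. The 7 genes with a range above 0.5 were Cpr72Ec, Cpr49Ae, Lcp9, Cpr49Ab, TwdlR, Cpr11A and Cpr78E.

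**Figure D1:**
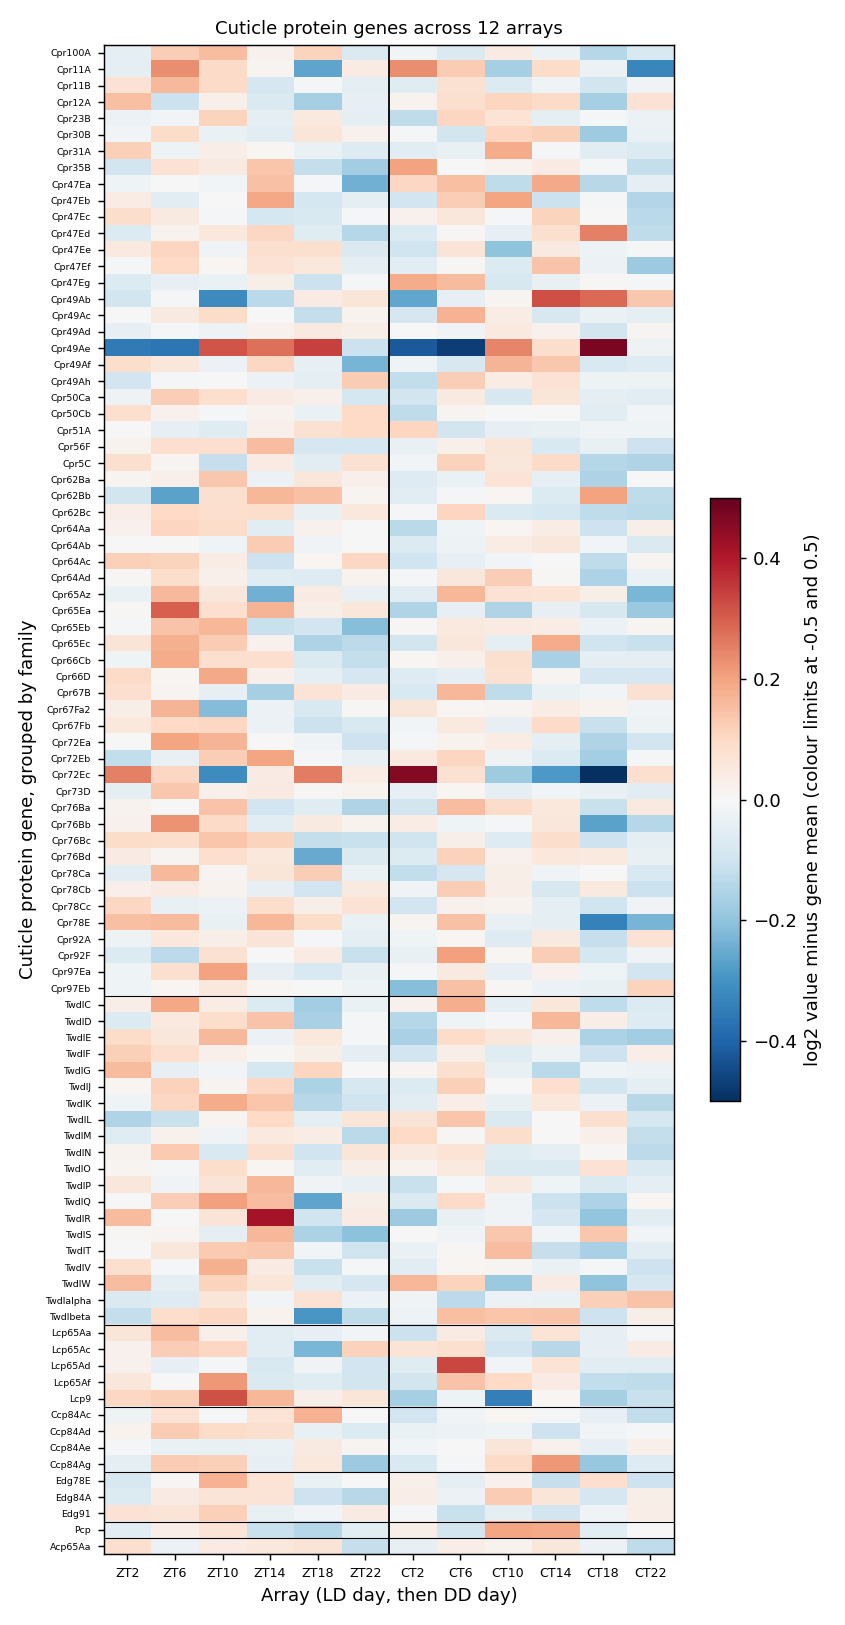
Heat map of the 92 cuticle protein genes (rows, grouped by family) on the 12 arrays (columns, LD day then DD day), coloured by the log2 value minus the gene's own mean. Most rows are pale, and the strongest colours are those of Cpr49Ae and Cpr72Ec, whose ranges were 0.94 and 0.985.

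Cpr49Ae (CG8505), a CPR gene, had the clearest daily pattern of the families. Its log2 value in LD was 4.19 at ZT2, 4.18 at ZT6, 4.86 at ZT10, 4.82 at ZT14, 4.88 at ZT18 and 4.44 at ZT22. In DD it was 4.12 at CT2, 4.07 at CT6, 4.79 at CT10, 4.63 at CT14, 5.01 at CT18 and 4.51 at CT22. Hours 2 and 6 were low on both days, at no more than 4.19, and hours 10, 14 and 18 were high, at no less than 4.63. The same hour differed between the days by at most 0.185, against a range of 0.94 (1.92-fold). The fitted 24 h wave had an amplitude of 0.40 (SE 0.085, adjusted p = 0.231) in LD with its peak at 14.8 h, and of 0.42 (SE 0.085, adjusted p = 0.0856) in DD with its peak at 15.8 h. The wave shared by both days had an amplitude of 0.41 (SE 0.059) and a peak at 15.3 h. Its unadjusted p of 3.17e-05 ranked 3 among 13966 probe sets and gave an adjusted p of 0.148.

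With all 12 arrays no wave of Cpr49Ae was called, and leaving out 1 array changed this in 2 fits. The DD wave passed without CT10 (adjusted p = 0.0458) and the shared wave without CT14 (adjusted p = 0.0215). With the body-tissue score as a covariate the shared amplitude was 0.39 (adjusted p = 0.209) and the DD amplitude 0.34 (adjusted p = 0.761). The light phase held both low hours and a high one: the values were 4.41 ± 0.39 in LD light and 4.71 ± 0.24 in LD dark, and 4.33 ± 0.40 in DD subjective day and 4.72 ± 0.26 in DD subjective night (SD, n = 3 each), and the groups overlapped on both days. Its neighbour in the RefSeq gene order, Cpr49Af, had a shared amplitude of 0.10 (adjusted p = 0.461).

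Cpr72Ec (CG4784), a CPR protein found in the corneal lens, had the largest range of the 92 genes, 0.985. Its log2 value was 9.55, 9.40, 8.99, 9.34, 9.56 and 9.34 from ZT2 to ZT22. From CT2 to CT22 it was 9.76, 9.37, 9.12, 9.01, 8.77 and 9.38. On both days each value from hour 2 to hour 10 was lower than the one before it, and the days parted at hour 18, where LD was 0.785 above DD. The DD wave had an amplitude of 0.40 (SE 0.086, adjusted p = 0.100) with its peak at 2.9 h, and the LD wave of 0.18 (adjusted p = 0.691) with its peak at 22.4 h. The DD wave passed without ZT22 (adjusted p = 0.0466), with the same amplitude of 0.40 and an SE of 0.074. ZT22 is an LD array, so it enters that test only through the spread pooled over both days and the adjustment. With the body-tissue score as a covariate the DD amplitude was 0.26 (adjusted p = 0.75). The subjective day was 0.36 (SE 0.171, adjusted p = 0.557) above the subjective night, and −0.02 (SE 0.258, adjusted p = 0.997) with that covariate. The body-tissue score was highest on the 3 arrays of the subjective night, so this fit separates score and phase poorly. The part of these other tissues in the difference was not tested otherwise. Of its gene-order neighbours, Cpr72Ea had a shared amplitude of 0.11 (adjusted p = 0.269) with its peak at 7.9 h and Cpr72Eb of 0.06 (adjusted p = 0.684). Cpr66D (CG32029), another CPR protein of the corneal lens, was singled out for that role after its values were seen. It lay between 4.80 and 5.07 on all arrays, with a shared amplitude of 0.08 (adjusted p = 0.41).

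**Figure D2:**
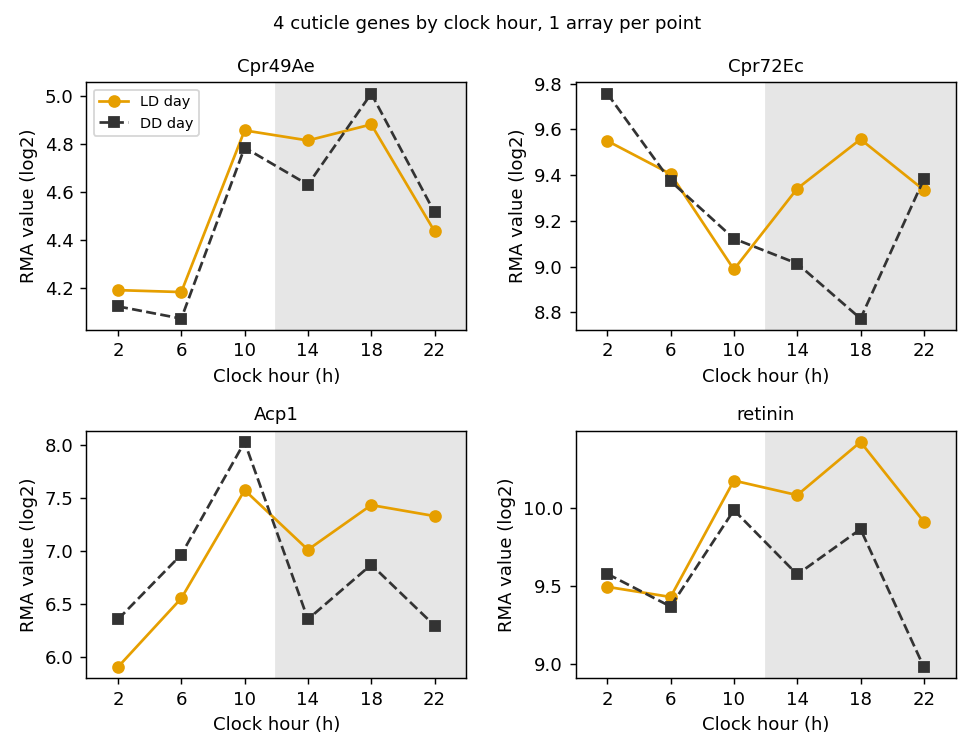
RMA log2 value (vertical axis, a separate scale in each panel) by clock hour of the 4 genes Cpr49Ae, Cpr72Ec, Acp1 and retinin, with 1 array per point, circles for the LD day and squares for the DD day. Grey marks the dark phase of LD and the subjective night of DD. The 2 days of Cpr49Ae run within 0.185 of each other at every hour, while those of Cpr72Ec part by 0.785 at hour 18.

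Light against darkness within the LD day gave no call among the 92 genes, against 0.0286% of all probe sets. An unadjusted p under 0.05 was reached by 6 of the 92 genes, all higher in light, against 7.12% of all probe sets in either direction and 3.39% higher in light. The first of them by p was Cpr65Eb (CG8638), whose log2 value was 3.06, 3.21 and 3.23 in light and 2.95, 2.97 and 2.85 in the dark. The groups did not overlap, and the difference was 0.24 (SE 0.065, adjusted p = 0.425). The dark values lay at about the arrays' lower quartile, which was 2.93 to 2.96 in LD, where there is little signal over background. Its gene-order neighbour Cpr65Ec (CG8634) was at 3.44, 3.55 and 3.50 in light and at 3.40, 3.22 and 3.24 in the dark, a difference of 0.21 (SE 0.084, adjusted p = 0.645). The other 4 were Cpr11B, Cpr72Ea and Cpr67Fb, each 0.16 higher in light (adjusted p = 0.652), and TwdlC, 0.18 higher (adjusted p = 0.667). Cpr49Ae differed most in size, at −0.30 (adjusted p = 0.786).

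Most of these small differences had one sign. All 92 genes were read on the same arrays, so their signs are not independent, here or in the contrasts below. Of the 92 genes, 70 (76.1%) had a higher mean in light than in the dark, compared with 53.8% of all probe sets, and the median difference was 0.06 against 0.01. All 5 Lcp genes, all 3 Edg genes, 15 of 20 Twdl genes and 43 of 58 Cpr genes were on the light side, as were 2 of the 4 Ccp84A genes. Light and dark arrays did not overlap for 15 of the 92 genes, 13 of them higher in light, against 12.9% of all probe sets and 7.4% higher in light. The number on the light side ranged from 63 to 73 over the other settings that keep all 92 genes, and was 63 with the body-tissue score as a covariate. Without ZT22 the median difference was 0.0355. The 95% confidence interval of a gene's difference had a median half-width of 0.16, and it lay within ±0.5 for 91 of the 92 genes and within ±0.25 for 56 of them.

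Subjective day against subjective night in DD likewise gave no call, against 1.39% of all probe sets. An unadjusted p under 0.05 was reached by 2 of the 92 genes, against 9.04% of all probe sets, and they pointed in opposite directions. Cpr49Ab (CG30042) was at 3.11, 3.33 and 3.38 in the subjective day and at 3.69, 3.65 and 3.50 in the subjective night, without overlap. The difference was −0.34 (SE 0.095, adjusted p = 0.115), and its wave in DD had an amplitude of 0.26 (SE 0.058, adjusted p = 0.117) with its peak at 15.9 h. Cpr78E (CG7160) was at 3.08, 3.21 and 3.02 in the subjective day and at 3.02, 2.73 and 2.83 in the subjective night, with a difference of 0.24 (SE 0.087, adjusted p = 0.312). Its values at CT18 and CT22 were under those arrays' lower quartiles, 2.94 and 2.92, where there is little signal over background. TwdlT was 0.15 higher in the subjective day (adjusted p = 0.58), but its other probe set gave −0.02. Twdlalpha was at 2.71, 2.60 and 2.70 in the subjective day and at 2.70, 2.85 and 2.88 in the subjective night.

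Of the 92 genes, 68 (73.9%) were higher in the subjective day, against 51.2% of all probe sets, with a median difference of 0.03. That count included 17 of 20 Twdl genes and all 4 Ccp84A genes, and 3 of 5 Lcp genes. The direction of Twdl genes depended on the probe set. On their other probe sets TwdlJ (−0.135), TwdlM (−0.036), TwdlN (−0.198) and TwdlT (−0.017) were lower in the subjective day. Leaving out 1 array moved the median to 0.0645 without CT14, 0.017 without CT18, 0.019 without CT6 and 0.022 without CT22, and the count to between 55 (without CT6) and 77 (without CT2). The count was 55 with the body-tissue score as a covariate and 74 after the arrays were quantile-normalised again. It was 64 when each gene was represented by its probe set with the largest interquartile range. Day and night did not overlap for 6 genes, 5 of them higher in the subjective day, against 14.2% of all probe sets and 6.26% higher in the subjective day. The day-night difference of LD was not called different from that of DD for any gene, nor for any of the 13966 probe sets (0%). The smallest adjusted p of a cuticle gene was 0.641, for Cpr65Eb, whose day-night difference was 0.21 larger in LD (SE 0.092), and 1 of the 92 genes had an unadjusted p under 0.05, against 7.34% of all probe sets.

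**Figure D3:**
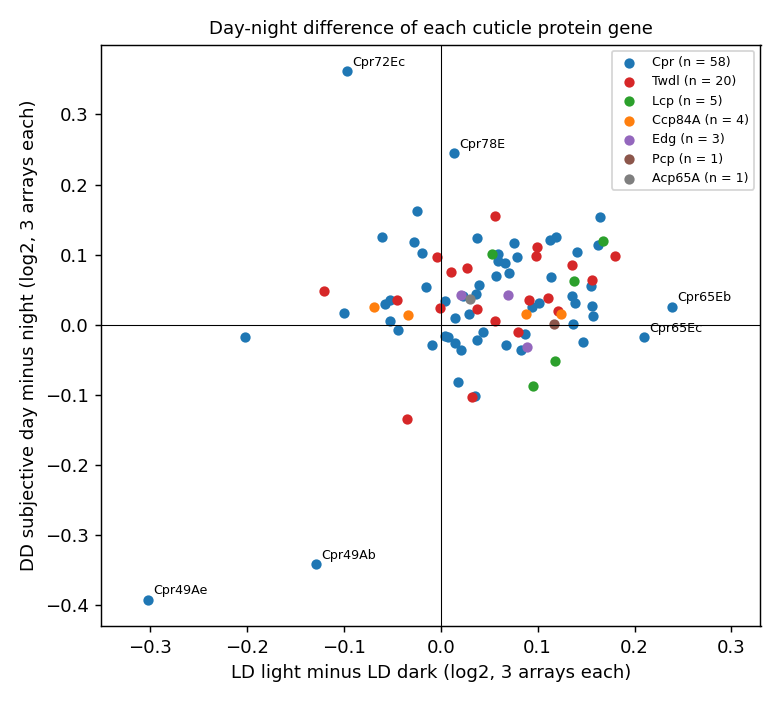
Each point is 1 of the 92 cuticle protein genes, coloured by family, placed by its LD light minus LD dark difference (horizontal axis, log2) and its DD subjective day minus night difference (vertical axis, log2). Most points lie within 0.2 of zero on both axes; Cpr49Ae and Cpr49Ab lie low on both, Cpr72Ec lies highest on the DD axis at 0.36, and Cpr65Eb lies farthest right at 0.24.

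Array by array the families shifted by small amounts. The median of the 92 values, each minus its gene's mean, ran from 0.06 at ZT10 to −0.05 at CT22. At ZT6 and at ZT10, 67 of the 92 genes were above their own mean, while 18 were at CT18 and 20 at CT22. Such a count was not made over all probe sets, so these counts have no background beside them. The median of all probe sets had the same sign there: 0.013 at ZT6, 0.012 at ZT10, −0.011 at CT18 and −0.020 at CT22. The median of all probe sets moved less at most times, from 0.02 at ZT2 to −0.02 at CT22, but was −0.05 at CT2, where the cuticle genes stood at −0.04. The body-tissue score was highest on the 3 arrays from CT14 to CT22, which included the lowest 2 medians of the cuticle genes, and CT14 was not low. The difference between 3′ and 5′ control probes of eIF-4a ranged from 2.90 (CT14) to 3.70 (ZT14). The part of these measures in the shift was not tested beyond the covariate fit.

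**Figure D4:**
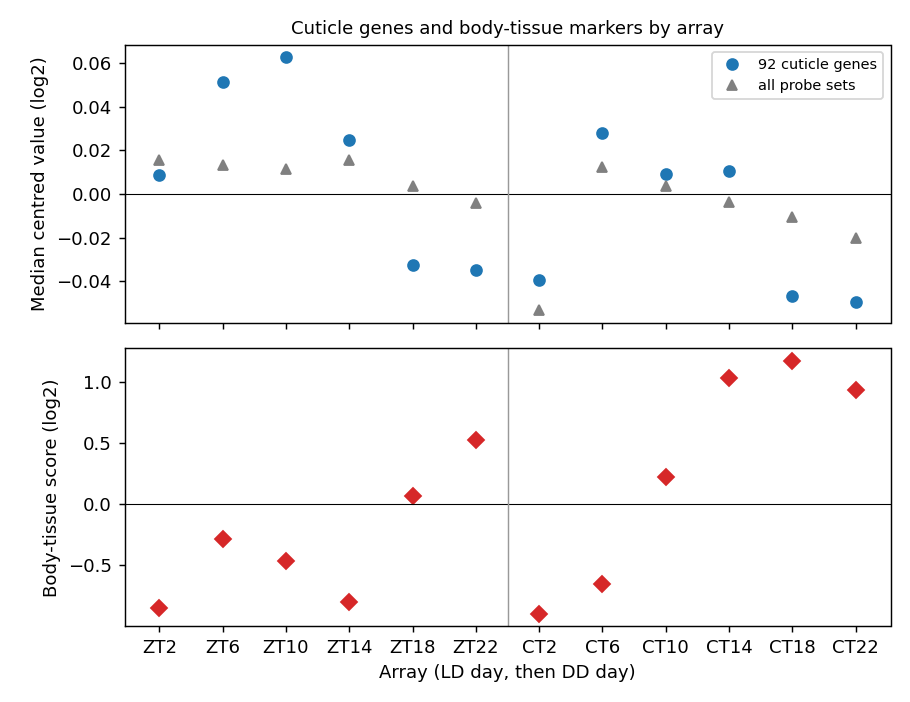
Upper panel: median centred log2 value of the 92 cuticle protein genes (circles) and of all probe sets (triangles) on each array, LD day then DD day. Lower panel: body-tissue score (log2) of the same arrays; the circles are lowest at CT22 (−0.05) and CT18, where the score is high, and highest at ZT10 (0.06).

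Between the days, comparing the 6 LD arrays with the 6 DD arrays called none of the 92 genes, against 0.0215% of all probe sets. Lcp9 (CG16914), a larval cuticle protein gene, came first by p. Its log2 value was 3.91, 3.92, 4.12, 3.97, 3.83 and 3.86 in LD and 3.64, 3.78, 3.46, 3.81, 3.64 and 3.69 in DD. The days did not overlap, LD was higher at 6 of 6 hours, and the difference was 0.27 (SE 0.062, adjusted p = 0.161). Cpr65Ea (CG8640) was at 3.72, 4.02, 3.80, 3.89, 3.75 and 3.78 in LD and at 3.57, 3.68, 3.57, 3.68, 3.64 and 3.53 in DD. It too was higher in LD at 6 of 6 hours, without overlap, by 0.22 (SE 0.056, adjusted p = 0.19). These 2 were the cuticle genes whose days did not overlap, against 0.601% of all probe sets. Cpr78E was 0.17 higher in LD (adjusted p = 0.343), TwdlR 0.19 higher (adjusted p = 0.357) and Cpr62Bc 0.11 higher (adjusted p = 0.416). The highest value of TwdlR, 3.715, was at ZT14, and its difference ranged from 0.119 to 0.248 over the arrays left out in turn. In this contrast 6 of the 92 genes had an unadjusted p under 0.05, against 10.8% of all probe sets.

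**Figure D5:**
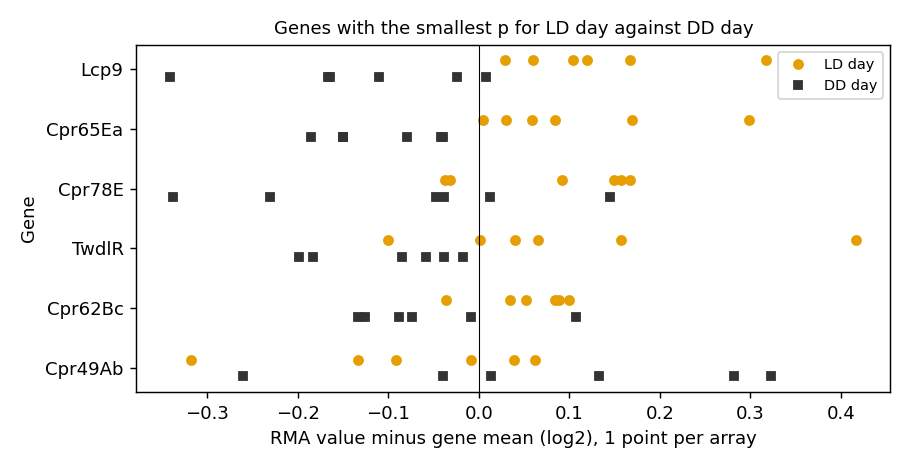
Log2 value minus gene mean on each of the 12 arrays (1 point per array, circles for LD and squares for DD) for the 6 cuticle protein genes with the smallest p between the days. The LD and DD points of Lcp9 and of Cpr65Ea do not overlap, while those of Cpr78E, TwdlR, Cpr62Bc and Cpr49Ab do.

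The phases were also compared singly. LD light against DD subjective day, the same hours with light on and off, called none of the cuticle genes and 0% of all probe sets. The smallest adjusted p was 0.303 for Lcp9, 0.36 higher in light, and 3 of the 92 genes had an unadjusted p under 0.05, against 7.51% of all probe sets. The third of the first 5 by p, Edg91, was at 3.71, 3.71 and 3.76 in light and at 3.63, 3.53 and 3.59 in the subjective day (difference 0.14, adjusted p = 0.626), and Cpr64Ac was 0.14 higher in light (adjusted p = 0.669). The groups did not overlap for 10 genes, all higher in light, against 13.6% of all probe sets and 9.66% higher in light. Of the 92 genes, 67 were higher in LD light, against 61.6% of all probe sets, but 47 were after each array was centred on its median and 52 after quantile normalisation. LD dark against DD subjective night called none, against 0.2% of all probe sets, and Cpr78E came first at 0.28 (adjusted p = 0.234). As stated above, its CT18 and CT22 values were under the lower quartile. An unadjusted p under 0.05 was reached by 6 genes, against 9.7% of all probe sets, and the groups did not overlap for 11 genes, against 14.1%. In all, 66 genes were higher in the LD day than in the DD day, against 62.7% of all probe sets, and 51 after median centring.

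The trend over the 12 collections was not called for any of the 92 genes, against 0.265% of all probe sets. Cpr78E had the smallest adjusted p, 0.0972, with a slope of −0.20 (SE 0.053) per 24 h, and it passed without CT6 (adjusted p = 0.0427). Its values under the lower quartile at CT18 and CT22 enter this slope too. Lcp9 had a slope of −0.21 (adjusted p = 0.127) and Cpr65Ea of −0.18 (adjusted p = 0.123), and the values of both also enter the contrast between the days. Cpr49Ab was the rising exception among the first 5 genes by p, at 0.20 (adjusted p = 0.203). An unadjusted p under 0.05 was reached by 10 genes, 9 of them with a negative slope, against 11.7% of all probe sets and 7.09% with a negative slope.

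Daily waves gave no call among the cuticle genes. The 24 h wave was not called for any of the 92 genes in LD, in DD or shared, against 0.0644%, 0.78% and 0.00716% of all probe sets. An unadjusted p under 0.05 was reached by 10 genes in LD (8.94% of all probe sets), by 7 in DD (11% of all) and by 16 for the shared wave (17.4%, against 12.8% of all). Besides Cpr49Ae, the leading Tweedle gene was Twdlbeta, with a shared amplitude of 0.14 (SE 0.035, adjusted p = 0.269) and its peak at 8.7 h. Its lowest value was 5.39 at ZT18 and its highest 5.83 at CT6. The larval cuticle gene Lcp65Af had 0.13 (adjusted p = 0.289) and its peak at 8.6 h, on a probe set whose mean lay under each array's lower quartile. TwdlC had 0.13 (adjusted p = 0.282) and its peak at 6.1 h, TwdlK 0.16 in LD (adjusted p = 0.417) and TwdlE 0.15 in DD (adjusted p = 0.345).

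The Lcp genes had a median range of 0.35, against 0.34 for all probe sets, from Lcp65Aa (0.26, values from 5.60 to 5.86) to Lcp9 (0.66, values from 3.46 to 4.12). Among the Ccp84A genes, a cluster of CPR genes within the Antennapedia complex, Ccp84Ae had the smallest range of all 92 genes: 0.10, with values from 7.49 to 7.59. Ccp84Ag ranged from 5.61 to 6.02. Of the Edg genes, ecdysone-dependent genes of the prepupal epidermis, Edg84A lay between 4.71 and 4.98. Pcp, a pupal cuticle protein gene, ranged from 3.75 to 4.09, and Acp65Aa, an adult cuticle protein gene, from 3.65 to 3.86. Probe sets of types marked as possibly matching related transcripts were used for 4 genes: TwdlJ, TwdlM, TwdlN and Ccp84Ad. The set used for TwdlJ lay between 7.63 and 7.91, while its other set had a mean of 2.87 and a range of 0.62. Light against dark in LD gave 0.09 on the TwdlJ set used and −0.10 on the other. Among genes above the median level, Cpr62Bb ranged from 4.96 to 5.44, Cpr47Ed from 4.15 to 4.55, TwdlQ from 4.01 to 4.48 and TwdlW from 4.10 to 4.46. In the RefSeq gene order, 58 of the 92 genes lie in 18 of the 20 uninterrupted runs of at least 2 family genes, and the other 2 runs had no measured member.

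Genes that build, harden and control cuticle were examined beside the families. Of chitin synthesis and assembly 36 of 41 listed genes were measured, of tanning and pigment 26 of 30, of the apical extracellular matrix 9 of 12, of other cuticle proteins 8 of 8 and of regulators of cuticle genes 17 of 20. In all 10 comparisons the only call among them was tan (t), a hydrolase that releases dopamine in cuticle and histamine in the eye from their beta-alanyl conjugates. Its wave in LD had an amplitude of 0.61 (SE 0.062, adjusted p = 0.00537): the log2 value of t was 6.66, 5.95, 5.60, 5.475, 6.07 and 6.51 from ZT2 to ZT22, and it stayed between 6.60 and 6.87 on the 6 DD arrays. It was also 0.69 lower in LD than in DD (SE 0.167, adjusted p = 0.161). Idgf1, a chitinase-like growth factor, was 0.30 lower in light than in the dark of LD (adjusted p = 0.592), and the chitinase gene Cht8 was 0.17 higher in LD than in DD (adjusted p = 0.351). The multicopper oxidase gene Mco3 was 0.20 higher in light (adjusted p = 0.616). Among matrix genes dumpy (dpy) was −0.13 in light against dark (adjusted p = 0.692), and dusky (dy) was 0.16 lower in LD than in DD (adjusted p = 0.343). The cuticle gene snsl was 0.16 higher in light (adjusted p = 0.645) and Vajk1 0.14 higher in LD than in DD (adjusted p = 0.295). Of the nuclear receptors, ftz-f1 was 0.19 lower in light (adjusted p = 0.714) and Hr4 0.27 higher in LD than in DD (SE 0.062, adjusted p = 0.161). Mco3, dy and ftz-f1 were at no more than 2.53 on any array. That is under the arrays' lower quartiles, 2.88 to 2.96, where there is little signal over background.

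Acp1 and retinin stood out from the members in size of change, and both were singled out after their values were seen. Acp1 (CG7216), an adult cuticle protein gene outside the named families, was at 5.90, 6.55, 7.57, 7.01, 7.43 and 7.33 from ZT2 to ZT22 and at 6.35, 6.96, 8.03, 6.35, 6.87 and 6.29 from CT2 to CT22. It was highest at hour 10 on both days, with a range of 2.13 (4.37-fold), and DD was above LD at hours 2, 6 and 10 and below it at hours 14, 18 and 22. Its day-night difference was 1.19 lower in LD than in DD (SE 0.535, adjusted p = 0.665). Retinin (CG13057), a protein of the corneal lens, was at 9.49, 9.43, 10.17, 10.08, 10.42 and 9.91 in LD and at 9.58, 9.37, 9.98, 9.57, 9.86 and 8.98 in DD. Its range was 1.44, its LD wave had an amplitude of 0.46 (adjusted p = 0.41) with its peak at 15.8 h, and its LD dark values were 0.67 above those of the DD subjective night (adjusted p = 0.291).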

How the data were processed

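The deposited table holds log2 values per probe set for 12 DrosGenome1 arrays, made by the authors with RMA, per the submitters' processing notes; the RMA version and array set were not given in the sources used here. RNA was about 25 µg per sample, per the labels. Of 14010 probe sets, 44 controls were left out. Group means, 24 h cosine and sine terms, or a slope were fitted to all 13966 others with limma 3.58.1 in R 4.3.3, tested on simulated data, with Benjamini-Hochberg adjustment and a threshold of 0.05. Precision is limited by the number of arrays, which have no sequencing depth. Probe sets were named from GEO's platform annotation; gene order came from the RefSeq table (Release 6 plus ISO1 MT). Of the probe sets, 12443 had 1 symbol, 327 several and 1196 none; all 92 members matched RefSeq. The members, gene lists and tests were chosen with earlier results of these data known. Named were, per comparison, the 5 members with the smallest p (none passed), the highest-mean member per family, the 8 widest-ranging members above the median level and, per other list, calls or the smallest p in 2 contrasts. Alternatives were other scalings, filters, priors, weights, probe sets, the body-tissue score, a clock-hour block and each array left out.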

Additional observations from a re-analysis of the deposited data

How the results depend on the processing

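The count of called cuticle genes was 0 in 194 pairs of a comparison and an alternative setting. It was 1 in 4 pairs, all of which left out 1 array. Over the arrays left out in turn it ranged from 0 to 1 for the DD wave (Cpr72Ec without ZT22, Cpr49Ae without CT10), the shared wave (Cpr49Ae without CT14) and the trend (Cpr78E without CT6). For Cpr72Ec the array left out was of the LD day, so the DD amplitude stayed at 0.40 and only its SE and the adjustment changed. The cause of the other changes was not tested. The median difference of the 92 genes depended on the scaling between the days. With each array centred on its median it went from 0.035 to 0.00067 for LD light against DD subjective day, from 0.017 to 0.0052 for LD dark against DD subjective night, from 0.028 to 0.0053 for LD against DD and from 0.020 to −0.0023 for the difference of the day-night differences. Leaving out 1 array gave medians from 0.0026 (without ZT14) to 0.033 (without CT14) for LD dark against DD subjective night, from 0.020 (without CT2) to 0.057 (without CT6) for LD light against DD subjective day, and down to 0.018 for LD against DD (without ZT14 or CT22). That of the difference of differences reached 0.051 without ZT14 and about 0 without CT14. No direction of these 4 medians is therefore claimed. Of the values of named genes under alternatives, 954 kept their direction and side of the threshold, 4 passed it as above, and 2 turned. Cpr72Ec between DD subjective day and night went to −0.021 (SE 0.258) with the body-tissue score as a covariate. TwdlT in the same contrast went to −0.017 on its other probe set. Many of the 954 could not turn, as a wave's amplitude has no sign. Leaving out an array outside a contrast, or changing the prior, also leaves the difference unchanged. Pairing arrays by clock hour, with the hour as a replicate block, gave 0 called cuticle genes in its 4 contrasts and a median of 0.028 between the days. Both days hold the same hours, so the block could not change that median. With 3 arrays a group, the median half-width of a 95% interval was 0.16 for a contrast between single groups. It was 0.11 for the LD day against the DD day and 0.23 for the difference of the day-night differences. A typical gene's difference is known only to about those widths. Values near an array's lower quartile, 2.88 to 2.96, carry little signal over background.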
